A study of Mus musculus with 5 samples.

Results

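The genes described here are those of the MHC class II antigen-presentation pathway and its transcriptional switch, measured in whole mouse colon 3 hr after an agonist of the IL-11 receptor. They are H2-Aa, H2-Ab1, H2-Eb1, Cd74, H2-DMa, H2-DMb1, H2-DMb2, H2-Oa, H2-Ob and Ciita, 10 genes chosen by name, with all 15 array probes matched to them, out of 32917 features tested and 56605 probes. The study used 5 Agilent SurePrint G3 arrays for mouse, in 1 colour, and each array held RNA of 1 wild-type C57BL/B6 animal: 2 Control arrays, and 3 arrays from mice that received NT-3N intravenously and whose colon was taken 3 hr later. NT-3N is the name of this agonist in the series record, and the methods, which do not use that name, describe the injected agonist as human IL-11 with mutations in its linker region. The injected mice were 8 weeks old, and an age was not given for the controls. The sources put the dose at 10 mg in the series record and at 10 µg in the methods. No vehicle injection is given for the controls, so the injection and the agonist cannot be told apart. The arrays shared 1 slide and 1 scan time.

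MHC class II molecules are pairs of alpha and beta chains that present peptides from the endosome to CD4+ T cells. The invariant chain Cd74 guards the groove until H2-M (H2-DM) exchanges its last fragment for a peptide, and H2-O, which is found mainly in B cells, restrains H2-M. Ciita, the class II transactivator, does not bind DNA itself but joins RFX, CREB and NF-Y on a conserved set of promoter boxes, the X and Y boxes, and IFN-gamma is the best-known inducer of Ciita outside B cells and dendritic cells. In the colon the main class II-bearing cells are macrophages, dendritic cells and B cells of lymphoid follicles, and epithelium can acquire it.

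The promoter boxes are shown for the 6 genes in which the Y box letters lay close to the start, because they are what Ciita acts through. The RefSeq promoter table of assembly GRCm38.p6 held 7 of the 10 genes; H2-Ab1, Cd74 and Ciita had no match. Each stretch is 61 bases on the coding strand, 5′ to 3′, and capitals mark GATTGG, the inverted CCAAT of the Y box, and GNAAC, letters from the core of the X box, where it lay 20 to 35 bases before.
H2-Aa, chr17:34287857-34287917, minus strand: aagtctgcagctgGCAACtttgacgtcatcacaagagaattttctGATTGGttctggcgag
H2-Eb1, chr17:34305762-34305822, plus strand: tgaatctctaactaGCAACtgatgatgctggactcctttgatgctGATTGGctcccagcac
H2-DMb1, chr17:34153084-34153144, plus strand: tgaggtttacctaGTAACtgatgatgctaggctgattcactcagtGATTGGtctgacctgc
H2-DMb2, chr17:34145113-34145173, plus strand: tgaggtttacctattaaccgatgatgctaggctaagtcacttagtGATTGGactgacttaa
H2-Oa, chr17:34092290-34092350, plus strand: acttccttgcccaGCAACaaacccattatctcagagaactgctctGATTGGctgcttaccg
H2-Ob, chr17:34238802-34238862, plus strand: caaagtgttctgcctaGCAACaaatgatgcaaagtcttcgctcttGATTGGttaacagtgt

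The gap between these letters, which includes further X box sequence, was 27 bases in H2-Aa, H2-DMb1 and H2-Oa, 26 in H2-Eb1 and 24 in H2-Ob. The spaced pair was present in 5 of the 7 genes and in 0.922% of the 32851 promoters in the table, searched on both strands over the 250 bases before to 50 after each start. GATTGG alone was present in 7 of 7 genes and in 16.1% of promoters; in H2-DMa it lay only at position -199, counted from a start. H2-DMb1 and H2-DMb2, neighbouring duplicates, had 52 of the 61 bases in common at the same place, but H2-DMb2 lacked GNAAC at that spacing. TTCCNGGAA, the letters of a STAT site, occurred in 1 of the 7 genes, H2-DMb2, and in 1.15% of promoters, and a pair of GAAA with 2 bases between, as in interferon-type elements, in 0 of 7 and in 3.44%. A match to these letters is not a measurement of binding.

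None of the 10 genes passed the test of NT-3N against Control in limma, whose adjusted p over all features lay between 0.54 for H2-Oa and 0.82 for H2-DMb1 and H2-Eb1. At an adjusted p under 0.05, 0.143% of all features were called. At an unadjusted p under 0.05, 0 of the 10 genes passed, where 9.62% of all features did, and the lowest value was 0.0583 for H2-Oa. A local-pooled-error test, the kind the study's methods name, called 0 of them after adjustment and had 1, H2-Oa, at an unadjusted p of 0.0318. The NT-3N mean was above the Control mean for all 10 genes, as it was for 46.4% of all features, with log2 fold changes from 0.10 to 0.98 and a median of 0.26. The median over all features was -0.019. Without Control replicate 2 the median of the 10 was -0.039, and 7 of them were lower in NT-3N; H2-Ab1, H2-DMa and H2-Oa were not, with 0.011, 0.25 and 0.20. Values are log2 signal after quantile normalization, in which every array is given the same distribution, and each gene is represented by its brightest probe. On each of the 5 arrays all 15 probes passed the scanner's test for signal well above background.

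The classical chains form the peptide-binding molecule at the cell surface. H2-Ab1, the beta chain of H2-A (I-A), had a log2 signal of 14.74 and 14.42 on Control replicates 1 and 2, and of 14.44, 14.93 and 14.89 on NT-3N replicates 1, 2 and 3. Its lowest NT-3N array lay 0.016 above its lowest Control array, and the groups overlapped.
The Control mean was 14.58 ± 0.22 (SD, n = 2) and the NT-3N mean 14.75 ± 0.27 (SD, n = 3). The fold change was 1.12, with a 95% interval from 0.843 to 1.501 and a limma adjusted p of 0.78. All 4 probes of H2-Ab1 had a log2 fold change between 0.17 and 0.23.

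H2-Aa, the alpha chain that pairs with it, had a log2 signal of 11.26 and 10.81 in Control and 11.01, 11.26 and 11.33 in NT-3N. Control replicate 2 was lowest and NT-3N replicate 1 next, as for H2-Ab1. Its fold change was 1.12, with an interval from 0.848 to 1.48. H2-Eb1, the beta chain of H2-E (I-E), read 14.18 and 13.91 in Control and 13.95, 14.24 and 14.25 in NT-3N. It varied least of the 10 over the arrays, and its fold change of 1.07 had an interval from 0.867 to 1.33. Its partner H2-Ea had no probe matched, and RefSeq lists it as a transcribed pseudogene in the reference strain. Cd74, the invariant chain, read 13.80 and 13.38 in Control and 13.50, 13.90 and 13.82 in NT-3N, again lowest on Control replicate 2 and next on NT-3N replicate 1. Its fold change was 1.11, with an interval from 0.837 to 1.46. For these 4 genes the intervals together ran from 0.837-fold to 1.501-fold, and each included no change.

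**Figure D1:**
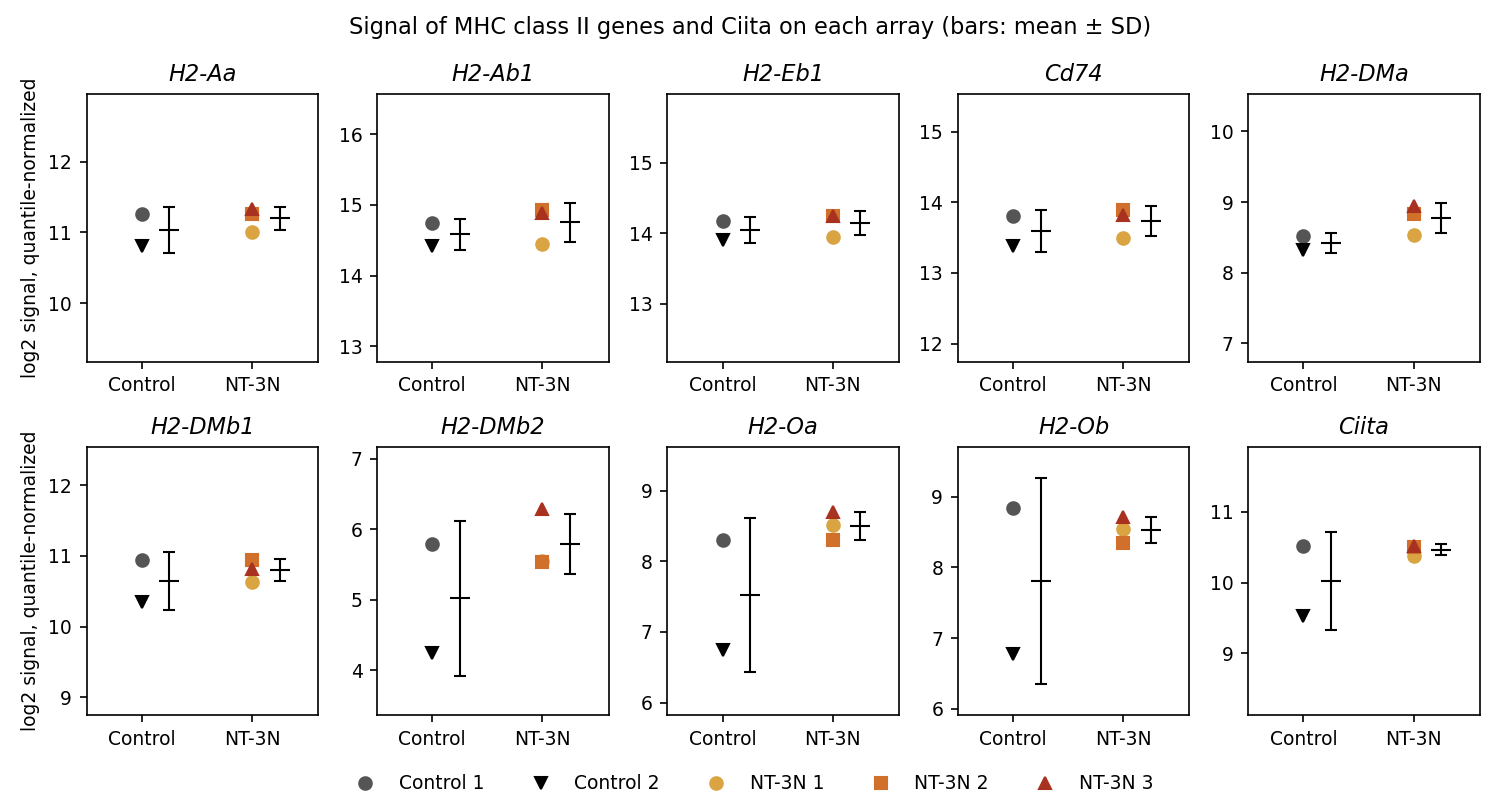
Log2 quantile-normalized signal of each gene on the 5 arrays. Each panel spans the same number of log2 units but starts at its own level, points are arrays (1 mouse each) and the bars to their right are mean ± SD of 2 Control and 3 NT-3N arrays. Control replicate 2, the black triangle pointing down, is the lowest point in every panel, and it lies far below the other 4 in the panels of H2-DMb2, H2-Oa, H2-Ob and Ciita.

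H2-M is the heterodimer that loads peptide. H2-DMa, its alpha chain, read 8.52 and 8.32 in Control and 8.54, 8.83 and 8.95 in NT-3N. With quantile normalization it was the only 1 of the 10 genes whose groups did not overlap. Every NT-3N array lay above both controls, while 13.5% of all features were separated in that direction. With median scaling 2 of the 10 did not overlap, and with the authors' log2 values 2 of 9. The closest arrays for H2-DMa were Control replicate 1 and NT-3N replicate 1. On the log2 scale the difference was 0.35 (SE 0.16), and limma gave an unadjusted p of 0.0657 and an adjusted p of 0.55. The fold change of 1.27 had an interval from 0.979 to 1.66. H2-DMb1, a beta chain, read 10.94 and 10.35 in Control and 10.63, 10.94 and 10.82 in NT-3N, with a fold change of 1.11 and an interval from 0.808 to 1.53. The controls lay farther apart than the group means.

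H2-DMb2, the second beta chain gene, was dimmer than H2-DMb1 and varied more between arrays. It read 5.79 and 4.25 in Control and 5.55, 5.53 and 6.29 in NT-3N. The processed signal behind these values was 52.2 and 19.4 in Control and 43.1, 51.0 and 80.5 in NT-3N. Control replicate 2 alone was low, and the other control lay within the NT-3N arrays. The fold change of 1.71 had an interval from 0.754 to 3.86. On the log2 scale the difference was 0.77, and it was 0.30 with normexp background correction. Whether the probes of these duplicates also take up each other's transcript was not tested.

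H2-O, which tempers H2-M, is made of H2-Oa and H2-Ob. H2-Oa had the largest difference of the 10. It read 8.30 and 6.75 in Control and 8.51, 8.29 and 8.69 in NT-3N. Control replicate 1 lay at the level of NT-3N replicate 2, and Control replicate 2 stood apart below them. The Control mean was 7.52 ± 1.09 (SD, n = 2) and the NT-3N mean 8.50 ± 0.20 (SD, n = 3). The log2 fold change of 0.98 had a standard error of 0.42 and an interval from -0.046 to 2.00, and without Control replicate 2 it was 0.20. H2-Ob read 8.84 and 6.78 in Control and 8.54, 8.34 and 8.72 in NT-3N, so that its highest and its lowest array were both controls. Its log2 fold change of 0.72 had an interval from -0.60 to 2.05 and turned to -0.31 without Control replicate 2. The second H2-Ob probe gave 0.81, and the probes differed by at most 0.23 on an array after centring.

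Ciita read 10.51 and 9.53 in Control and 10.37, 10.51 and 10.51 in NT-3N. The 4 arrays other than Control replicate 2 spanned 0.14 on the log2 scale, less than for any other of the 10 genes. The Control mean was 10.02 ± 0.69 (SD, n = 2) and the NT-3N mean 10.46 ± 0.080 (SD, n = 3). On the log2 scale the difference was 0.44 (SE 0.27), with an interval from -0.21 to 1.09 and an adjusted p of 0.65 in limma. Without Control replicate 2 it was -0.049. A second, dimmer probe gave 0.49 and the same low array.

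**Figure D2:**
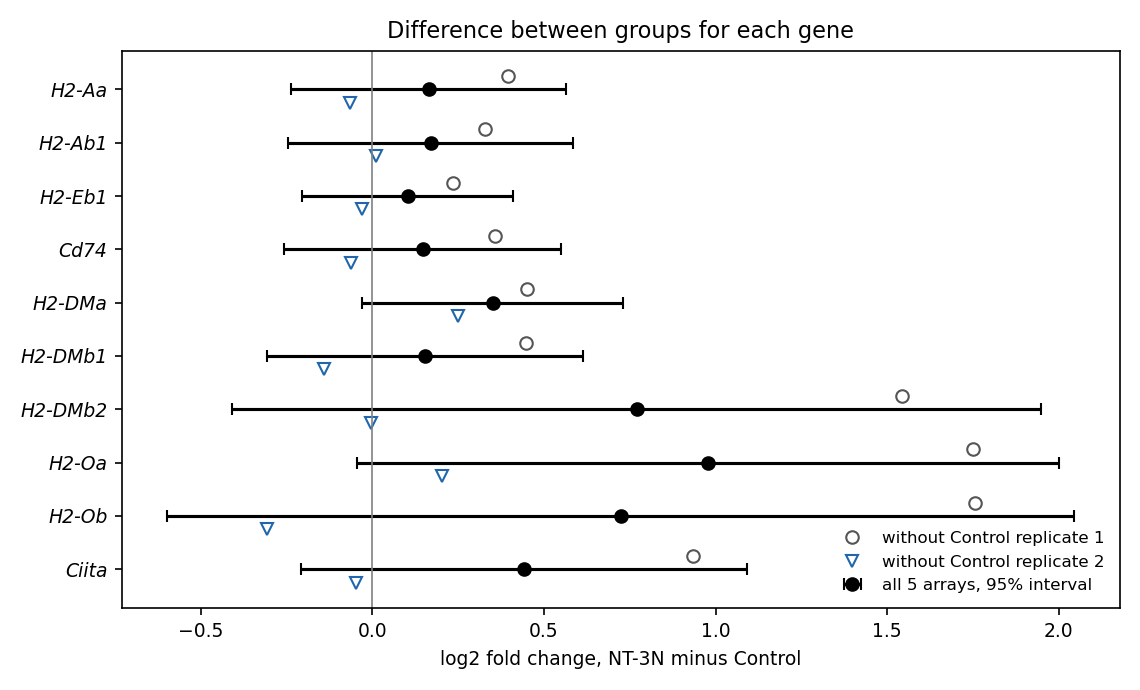
Log2 fold change of each gene, NT-3N minus Control. Filled circles and bars are the estimate from all 5 arrays and its 95% interval, and open symbols are the estimate with 1 control left out. All 10 intervals include 0, and without Control replicate 2 (open triangles) 7 of the estimates fall below 0, while without Control replicate 1 (open circles) all rise.

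The 2 Control arrays lay apart on all 10 genes, from 0.20 for H2-DMa to 2.06 for H2-Ob on the log2 scale. All 10 genes were lowest on Control replicate 2, as were 19.2% of all features; with median scaling this held for 8 of the 10, not for H2-Ab1 and H2-Eb1, and with normexp background correction for 9, not for H2-Ab1. The gap between the controls exceeded the group difference for 9 of the 10. Both quantities depend on the low Control replicate 2, and the share of all features is not given. Set against the mean of the other 4 arrays, a comparison chosen after the values were seen, Control replicate 2 was lower by 3.56-fold for H2-Ob, 3.25-fold for H2-Oa, 2.92-fold for H2-DMb2 and 1.93-fold for Ciita. For the other 6 genes it was lower by 1.18-fold for H2-Eb1 up to 1.40-fold for H2-DMb1. A gap from Control replicate 1 to Control replicate 2 as large as that of H2-Ob was found in 0.368% of all features, of H2-DMb2 in 0.723%, of H2-Oa in 0.726% and of Ciita in 1.98%.

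By these values the genes were divided into a steady and a variable set. The low Control replicate 2 of the variable set therefore follows from the division. H2-Aa, H2-Ab1, H2-Eb1 and Cd74 deviated from their own means by a median of 0.10, -0.28, -0.17, 0.18 and 0.17 on Control replicates 1 and 2 and NT-3N replicates 1, 2 and 3. H2-DMa and H2-DMb1 had medians of 0.046, -0.35, -0.10, 0.20 and 0.20. They went the same way except on Control replicate 1, where H2-DMa was at -0.11 and H2-DMb1 at 0.20. H2-Oa, H2-Ob, H2-DMb2 and Ciita deviated by 0.27, -1.30, 0.19, 0.14 and 0.53, so NT-3N replicate 1 was low for the steady set and not for the variable one.

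Most of the listed markers of B cells were, like the variable set, low on Control replicate 2. Of 10 such markers, 9 lay at least 1 log2 unit below the mean of the other arrays on Control replicate 2. Ms4a1 counted among these 9, though it was lower still on Control replicate 1. Control replicate 2 was the lowest array for 8 of the 10, and for 19.2% of all features. Fcmr was lower by 9.21-fold, Fcer2a by 5.92-fold and Cr2 by 5.19-fold. The antigen receptor partners Cd79a and Cd79b were lower by 3.23-fold and 3.74-fold. The summed normalized signal of the 10 was 1801 on Control replicate 2 and 6764 on Control replicate 1, and lay between 5658 and 7113 in NT-3N. No defining marker was absent: 9 of the 10 had signal well above background throughout and Blk on 3 arrays. Cd22 was the exception with a difference of -0.13, and Ms4a1 was low on both controls. Pax5, a B cell factor listed here with the regulators of Ciita, differed by -0.083 on Control replicate 2. The part of B cells in the values of H2-Oa, H2-Ob, H2-DMb2 and Ciita was not tested. In whole colon, fewer cells of a type and less RNA per cell cannot be told apart.

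The other cell type lists did not share that low array to this extent. Macrophage markers had median deviations of 0.0061, 0.026, -0.24, 0.19 and 0.062 in the same array order, with NT-3N replicate 1 lowest, as their summed signal was, at 13572 against 15608 to 16053 in Control and up to 17781 in NT-3N. Dendritic cell markers were at -0.21 on Control replicate 2 and between 0.069 and 0.18 on the other 4. Of the 9 tested, Ccr7 alone lay more than 1 log2 unit below the mean of the other 4 there. Their summed signal, 91228 to 92805 in Control and 75270 to 96222 in NT-3N, was almost entirely that of the Siglech probe. Without Siglech the sum of the other 8 was 1772 and 1249 in Control and 1998, 2199 and 2189 in NT-3N, again lowest on Control replicate 2. T cell markers lay between -0.084 and 0.24, with sums of 4366 to 5083 in Control and 4279 to 5571 in NT-3N. Epithelial markers, which check the tissue, had signal well above background throughout for all 9 tested. Their median deviation stayed between -0.041 and 0.021, with sums of 682158 to 708202 in Control and 655867 to 704197 in NT-3N. By group mean 7 of the 9 were lower and 2 higher in NT-3N. Their log2 fold changes ran from -0.46 for Cdx2 to 0.066 for Krt18.

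**Figure D3:**
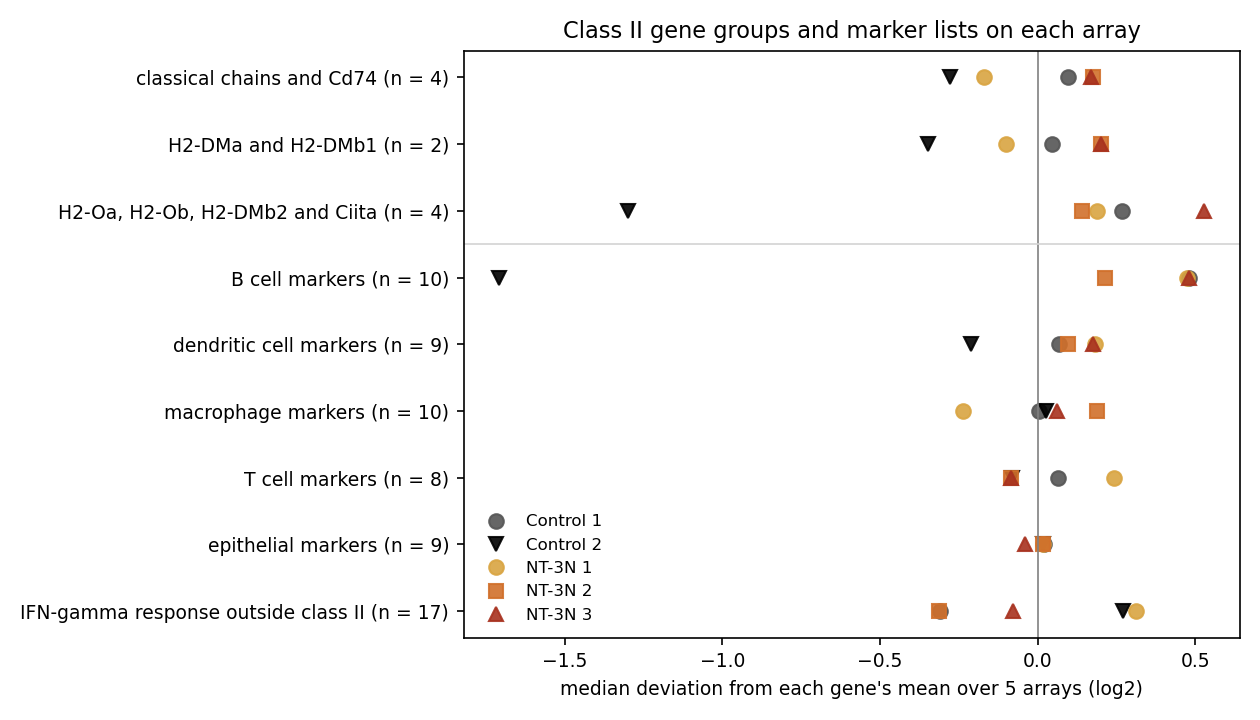
Median deviation of the genes in each group from their own mean over the 5 arrays, on the log2 scale, with 1 point per array; n is the number of genes tested, and some points overlap. H2-Oa, H2-Ob, H2-DMb2 and Ciita lie at -1.30 and B cell markers at -1.71 on Control replicate 2. The median of the epithelial markers stays near 0 on all arrays.

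The factors that Ciita joins on the promoter had log2 fold changes between -0.20 and 0.25. Of Rfx5, Rfxap, Rfxank, Creb1, Nfya, Nfyb and Nfyc, 1 of 7 was higher at an unadjusted p under 0.05, where 4.95% of all features were higher and 4.67% lower, and 0 after adjustment in limma. It was Nfyb, a CCAAT-binding subunit of NF-Y, with a log2 fold change of 0.25. The median of the 7 was -0.082, and only 1 of them was lowest on Control replicate 2.

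Of 16 regulators of Ciita, 15 were tested. Ifng itself had 1 probe, well above background on 1 array, and was not tested. Socs3, a feedback inhibitor of cytokine receptors that use JAK kinases, was the 1 that passed after adjustment: it read 10.63 and 10.11 in Control and 12.88, 13.21 and 13.14 in NT-3N, a log2 fold change of 2.71 with an adjusted p of 0.0087 in limma. Socs1, which restrains IFN-gamma signalling, read 8.45 and 9.20 in Control and 8.97, 8.86 and 8.66 in NT-3N, within the span of the controls.

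Other regulators of Ciita did not pass after adjustment. Irf1, an interferon-induced factor that acts on the Ciita gene, differed by -0.14 on the log2 scale (limma adjusted p = 0.74). Irf2, a related factor, and the kinase Jak1 had log2 fold changes of 0.34 and 0.21, both at an unadjusted p under 0.05 only. The median over the 15 regulators was 0.079.

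IFN-gamma response genes outside class II gave no common direction. Of 17 tested, 4 were higher and 1 lower at an unadjusted p under 0.05, where 4.95% of all features were higher and 4.67% lower. After adjustment 0 were called in limma, and the median of the 17 was 0.013. The local-pooled-error test called 3 of the genes named here after adjustment, Gbp2, Iigp1 and Irgm1. That count covers the named genes only, not all 17. Among all features that test called 191 higher and 152 lower, where the main limma fit called 41 and 6. Over all 18 alternatives Iigp1 and Gbp2 were called in 3 each and Gbp5 and Irgm1 in 1 each. Leaving out Control replicate 1 made the median of the 17 genes -0.32, and leaving out Control replicate 2 made it 0.30. The higher ones were Iigp1, an immunity-related GTPase, with a log2 fold change of 1.71 (limma adjusted p = 0.093), Gbp5 with 1.64, the guanylate-binding protein gene Gbp2 with 1.17 and the adhesion molecule gene Icam1 with 1.08, which was 0.45 with normexp background correction. The lower 1, named after its values were seen, was Irgm1, with -0.93 and an adjusted p of 0.37, and with -0.66, no longer at an unadjusted p under 0.05, without Control replicate 2. Across arrays the list lay at -0.31 and 0.27 on Control replicates 1 and 2 and at 0.31, -0.31 and -0.076 on the NT-3N arrays, so that Control replicate 2 was high here and low for class II genes.

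After adjustment, 0 of 11 genes for endosomal processing of antigen and invariant chain were called. At an unadjusted p under 0.05, 1 was higher, as were 4.95% of all features. It was Lgmn, an asparaginyl endopeptidase, with a log2 fold change of 0.40 (unadjusted p = 0.0142 in limma). Without Control replicate 1 it was 0.21, no longer at an unadjusted p under 0.05, and without Control replicate 2 it was 0.58. Their median was -0.028.

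The plot in chromosomal order sets the class II genes beside the class I processing genes of the same region. Psmb9, Tap1, Psmb8 and Tap2 lie between H2-DMb1 and H2-Ob, and had log2 fold changes of -0.20, -0.47, -0.11 and -0.064, none at an unadjusted p under 0.05. All 4 were lowest on NT-3N replicate 2, where H2-Ab1, Cd74 and H2-DMb1 were highest. Brd2, a bromodomain gene next to H2-Oa, had a log2 fold change of 0.12. H2-Eb2, a class II beta chain gene outside the 10, read 8.54 and 8.27 in Control and 8.82, 13.18 and 8.60 in NT-3N by its brighter probe. The value on NT-3N replicate 2 alone set its log2 fold change of 1.80, which was 0.31 without that array, and a second probe was well above background on 0 of 5 arrays.

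**Figure D4:**
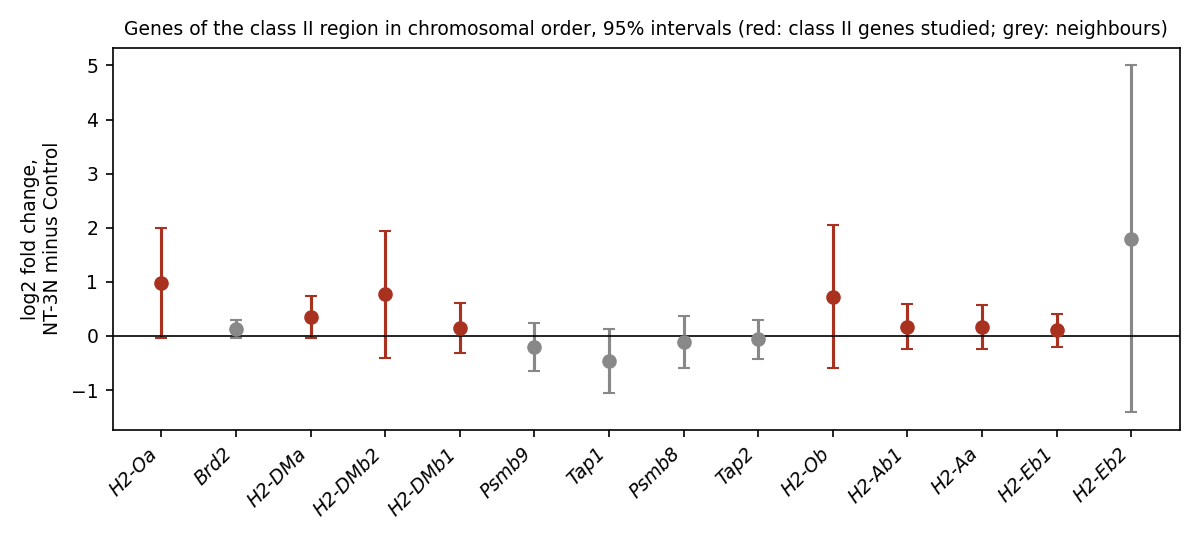
Log2 fold change, NT-3N minus Control, of the genes from H2-Oa to H2-Eb2 in their order on chromosome 17, spaced evenly, with 95% intervals from limma on 5 arrays. Class II genes of the 10 are red and their neighbours grey. All 14 intervals include 0, and that of H2-Eb2 is widest, with 1 array far above the other 4.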

How the data were processed

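Whole-colon RNA was labelled with Cy3 and read on 1-colour arrays. The authors extracted spots with Agilent Feature Extraction 11.0.1.1, and deposited the processed intensity of each spot, already background-subtracted and detrended but not scaled between arrays. A further table by the authors holds log2 values of 37380 probes, which match quantile-normalized processed signal (r at least 0.99998 on each array) and were used as an alternative. The labels name TRI-reagent and the methods Sepasol II Super for RNA extraction.

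Control spots and 69 to 184 outlier spots of 59305 per array were left out, and no spot was saturated. Between 70.6% and 73.1% of probes were well above background. Processed signal was log2-transformed, averaged per probe and quantile-normalized. Probes well above background on at least 2 of 5 arrays, with values on both controls and at least 2 NT-3N arrays, were kept. Accessions were named through RefSeq (GRCm38.p6) for 32994 of 56605 probes. A gene took its brightest probe, leaving 32917 features.

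NT-3N was compared with Control by limma 3.58.1 (R 4.3.3; lmFit, eBayes with trend, two-sided, Benjamini-Hochberg over all features), tested on simulated data. An exact two-sided permutation test of 1 gene cannot go below p = 0.1 with 5 arrays. Each array is 1 mouse, and the number of arrays limits precision. The genes, lists and tests were chosen with earlier results of these data known. All 10 genes are given. From the lists, genes past an adjusted p of 0.05, those at an unadjusted p under 0.05 (at most 4 per list) and Ifng, Irf1, Socs1 and Socs3 are named, except for some genes that are not reported here. The alternatives covered scaling, background, filter, variance model, weights, replicate block, probe rule, test and each array left out.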

Additional observations from a re-analysis of the deposited data

How the results depend on the processing

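Under 18 alternatives, 13 of them on all 5 arrays, no call was made among the 179 values of the 10 genes that could be computed, H2-DMb2 having no deposited log2 value. The count at an unadjusted p under 0.05 was 0, and became 1 with median scaling (H2-Oa), array quality weights (H2-DMa) and the local-pooled-error test (H2-Oa). Without NT-3N replicate 1 it was 2 (H2-Ab1 and H2-DMa). In the main fit 9.62% of all features were at that level. The share under each alternative is not given, so these counts cannot be set against it. Without each array in turn the median log2 fold change of the 10 ranged from -0.039 to 0.45. All reversals among them came without Control replicate 2, and the ranges over left-out arrays were -0.066 to 0.39 for H2-Aa, -0.030 to 0.23 for H2-Eb1, -0.064 to 0.36 for Cd74, -0.14 to 0.45 for H2-DMb1, -0.0032 to 1.54 for H2-DMb2, -0.31 to 1.75 for H2-Ob and -0.049 to 0.93 for Ciita. H2-Ab1, H2-DMa and H2-Oa stayed higher, at 0.011, 0.25 and 0.20 without that array. Socs1 was -0.0023 with 75th percentile scaling and -0.020 with array weights, and ranged from -0.37 to 0.39 over left-out arrays. The B cell marker median was 0.96, and was -0.21 if Control replicate 2 was left out and 2.31 if Control replicate 1 was. Socs3 was called in 13 of the 18. The cause was not tested. Fits with a single control take its spread from the NT-3N arrays.

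The replicate numbers were not taken as a pairing, since deviations correlated at 0.13 and 0.036 for the 2 shared numbers. With the replicate block, 0 of the 10 genes were called and their median log2 fold change was 0.20. Slide and scan could not be fitted as a block, with 1 of each. The planned normexp correction used the median spot signal.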

Other observations

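Among 16729 genes well above background on all 5 arrays, those whose centred profile lay nearest to the mean profile of H2-Aa, H2-Ab1, H2-Eb1 and Cd74, by root mean square difference over the 5 arrays on the log2 scale, were Gm35578 (0.025), Snhg16 (0.026), Ndrg2 (0.029), Ephb6 (0.035), Gnat3 (0.040), Dcaf13 (0.043), Pdzk1ip1 (0.045) and Ercc6 (0.045). By the same measure Cd74 lay 0.027 from that mean, of which it is a part, H2-DMb1 0.087, H2-DMa 0.12 and Ciita 0.26. The genes nearest to Ciita were Selenok-ps1 (0.054), Btk (0.055), a kinase of the B cell receptor pathway, Dlgap4 (0.059), Slc26a3 (0.059), an anion exchanger of colonic epithelium, and Rhoh (0.068), a GTPase gene of blood cells. With 5 arrays many genes can lie this near.

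Ms4a1, which encodes CD20, read 4.95 and 6.53 in Control and 9.54, 9.13 and 9.51 in NT-3N, a log2 fold change of 3.65 with an adjusted p of 0.060 in limma, and was called in 7 of 18 alternatives. It was the 1 B cell marker of 10 at an unadjusted p under 0.05, and unlike Cd79a it was low on Control replicate 1 too. At an unadjusted p under 0.05, 4.95% of all features were higher, and so were 2 of 9 dendritic cell markers. These were Batf3, a transcription factor of cross-presenting dendritic cells, with a log2 fold change of 0.99 (limma adjusted p = 0.078), and Clec10a with 0.70. Of 10 macrophage markers 1 was higher at that level, the mannose receptor gene Mrc1 with 0.53. Of 4 group 3 innate lymphoid markers tested, Il1r1 was higher with 0.66 at that level and 1 was lower, as were 4.67% of all features. By group mean 3 of the 4 were lower in NT-3N, and their median log2 fold change was -0.28. Of 8 T cell markers, 9 epithelial markers and 4 T cell co-stimulation genes, 0 reached an unadjusted p under 0.05 in limma, and 0 were called after adjustment.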
